A study of Rattus norvegicus with 8 samples.

Results

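The endothelin and renin-angiotensin systems were followed through 7 genes, Edn1, Ednra, Ednrb, Ece1, Agt, Ace and Agtr1a, in cirrhotic livers of male Wistar rats that had inhaled carbon tetrachloride (CCl4), a liver toxin. Every probe set, the group of short oligonucleotide probes that reads one transcript, was taken when the platform annotation gave it one of these symbols and no other. This gave 7 of the 31042 probe sets and covered 5 of the 7 genes, with a pair of probe sets each for Ace and Agtr1a. No probe set carried the symbol of the endothelin receptors Ednra and Ednrb in the annotation used, and both are not analysed here. By the sample titles, 4 rats belonged to the vehicle group and 4 to the group given antiangiogenic treatment, and each liver was read on 1 Affymetrix Rat2302 array. Rats of both groups inhaled CCl4 and drank water with 0.3 g/L phenobarbital. The agent, its dose and the length of treatment are not stated in the sources used here, and the design text calls the vehicle rats non-treated. All values are log2 intensities summarised by RMA, a method that normalizes the arrays together, and differences are treated minus vehicle on this scale. The comparison asks whether a treatment aimed at new vessels was accompanied by other levels of genes that set vascular tone, in a study concerned with portal pressure and fibrosis.

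Endothelin-1 is a peptide that constricts vessels. Its precursor, the product of Edn1, is cut to an inactive intermediate and then activated by the converting enzyme encoded by Ece1, and in liver it acts on stellate cells and sinusoids through its receptors. In the renin-angiotensin system, hepatocytes secrete angiotensinogen (Agt), renin from the kidney releases angiotensin I from it, and angiotensin-converting enzyme (Ace) on endothelium forms angiotensin II. The type 1 receptor, of which Agtr1a encodes the main rodent form, passes this signal to hepatocytes and contractile cells.

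Vehicle 4 and treated 3 carried nearly the same values across the array. Among the 9235 probe sets whose mean exceeded 7, this pair had 0 that were over 2-fold apart, whereas the 27 other pairs of arrays had 245 to 1627, and both arrays were kept under their labels. No label names a processing batch, and 3 spike-in groups were set from the bacterial controls by limits chosen with the values known. Vehicle 1 and treated 1, with the control BioC at least 1 log2 unit above BioB, formed the first, the near-identical pair, with BioB above 8.5, formed the third, and vehicle 2 and 3 with treated 2 and 4 formed the second. Under these limits each group held as many vehicle as treated arrays. BioB itself was not balanced, at 7.39 to 7.52 on vehicle 1 to 3 and 7.81 to 8.08 on treated 1, 2 and 4. Hepatocyte markers were bright on every array, with list means of 13.43 to 13.71 over 10 measured genes. The labels describe 4 rats a group, and p-values measure the spread between these arrays.

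No member passed the test for a change with treatment. Of the 7 probe sets, 0 passed an adjusted p of 0.05 in limma with Benjamini-Hochberg adjustment over all probe sets (0% of 31042 passed; adjusted p of the members 0.979 to 1.0), 0 had an unadjusted p under 0.05 (3.93% of all), and 0 had groups that did not overlap (1.67% of all). The estimate was lower in treated livers for 4 probe sets (45.3% of all probe sets were lower) and higher for 3, and all 7 of the 95% intervals included 0. Without vehicle 4 and treated 3, 0 of the 7 were called as well (0.00966% of all). Edn1 had the largest estimate and Agtr1a the smallest. With 4 arrays a group, the intervals still allowed changes of between 0.31 and 0.88 log2 units in one direction or the other, so that the result is a bound on the size of a change and not evidence that levels were equal.

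**Figure D1:**
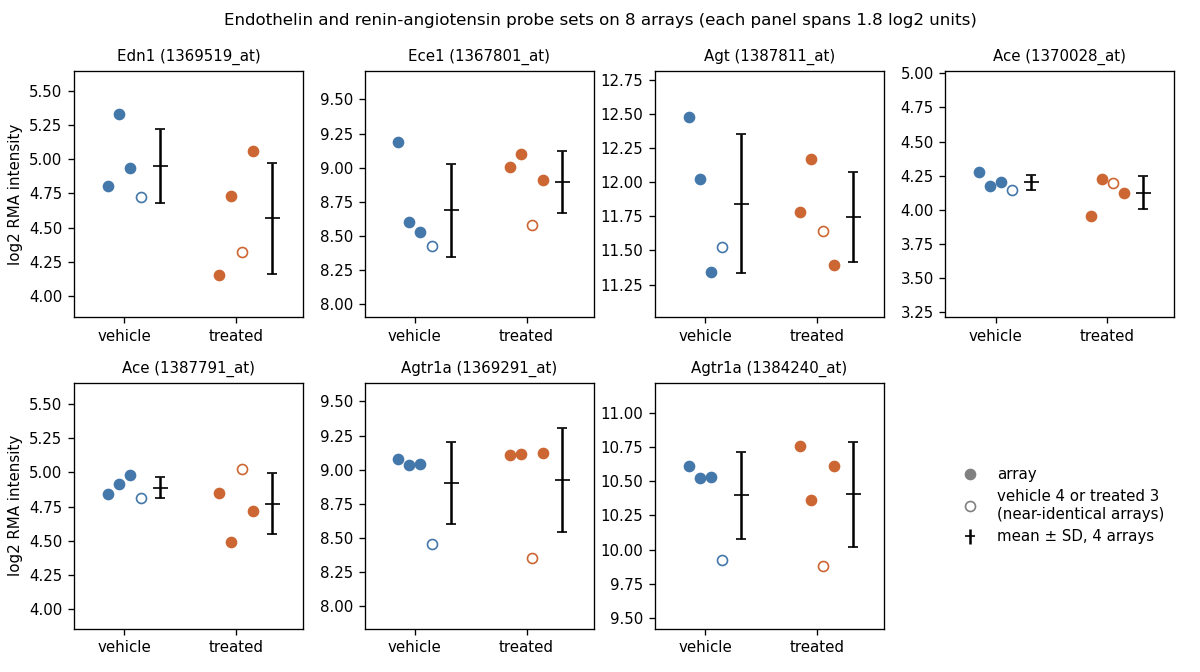
Log2 RMA intensity of the 7 member probe sets on each array, by group, with the mean ± SD of 4 arrays beside the points; open circles are the near-identical arrays vehicle 4 and treated 3. The groups overlap in every panel, and both Agtr1a probe sets have their open circles (8.35 to 9.92) below all filled ones.

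**Figure D2:**
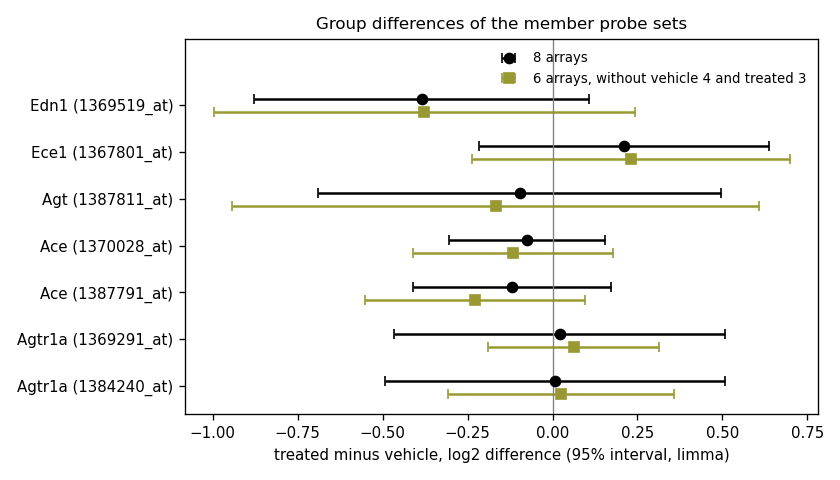
Treated minus vehicle difference in log2 units with its 95% interval from limma for each member probe set, over 8 arrays (circles) and over the 6 arrays left without vehicle 4 and treated 3 (squares). Every interval crosses 0, from Edn1 at −0.38 to Ece1 at 0.21.

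Edn1 (1369519_at), the ligand gene, read 4.81, 5.33, 4.93 and 4.73 in vehicle rats 1 to 4 and 4.15, 4.73, 4.32 and 5.06 in treated rats 1 to 4. Treated 1 and treated 3 lay below every vehicle array, while treated 2 and treated 4 lay within the vehicle range. The mean was 4.95 ± 0.27 (SD, n = 4) with vehicle and 4.57 ± 0.41 with treatment, which is 1.31-fold lower, with a difference of −0.38 (95% interval −0.88 to 0.11, limma adjusted p = 0.979). Without the near-identical arrays the difference was −0.38 (−0.997 to 0.24), and without treated 1 it was −0.25. Within the spike-in groups it was −0.65, −0.24 and −0.41, so Edn1 was the one member with a lower treated mean in all 3 groups. The last of these values compares the near-identical arrays themselves, and 5.51% of all probe sets lay at least as far apart on that pair. In the second group treated 4 (5.06) was above vehicle 3 (4.93). The share of all probe sets with the same sign in all 3 groups was not counted, so this pattern is a description only. Edn1 was dim, between the 32.7th and 50.4th percentile of its array, and signal was not tested against background.

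Endothelium is one source of Edn1, and endothelial markers had lower means in the same treated livers, as did markers of other cells. Of 12 vascular endothelial markers 10 were measured, and all 10 had lower means (48.4% of all genes did). The list mean was 6.62 to 7.54 on the vehicle arrays and 6.59 to 6.89 on the treated arrays. None of the 10 lay below the 25th percentile on all arrays, and 0 passed the adjusted threshold over 8 arrays. Without the near-identical pair 1 of them passed, the tight junction gene Cldn5 (−2.26, limma adjusted p = 0.0388), named here after its values were seen. This fit leaves out vehicle 4, where Cldn5 read 4.05, within the treated range of 3.81 to 4.75. In the marker list vehicle 4 (6.62) lay among the treated values, and the other vehicle arrays were each at 7.54. Edn1 did not set vehicle 4 apart in this way. Vehicle 4 (4.73) was the lowest vehicle array but close to vehicle 1 (4.81), and vehicle 1 and vehicle 3 also lay within the treated range of 4.15 to 5.06. Means were also lower for 6 of 6 sinusoidal endothelial, 12 of 14 stellate cell and myofibroblast, 6 of 6 mast cell and 5 of 5 bile duct markers. They were lower for 5 of 7 vascular smooth muscle, 4 of 6 macrophage and 6 of 10 hepatocyte markers. In bulk liver, fewer endothelial cells and less RNA per cell cannot be told apart, and the part of cell content in the Edn1 values was not tested.

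The sequence before the Edn1 gene is shown because Edn1 had the largest estimate among the members. RefSeq places this window on GRCr8 chr17:22666638-22666937, minus strand, 250 bases before the annotated start and 50 after it. Capitals mark matches to motifs searched on both strands: the GATA motif AGATAA, the hypoxia response core ACGTG and the TATA box TATAAA.
Edn1: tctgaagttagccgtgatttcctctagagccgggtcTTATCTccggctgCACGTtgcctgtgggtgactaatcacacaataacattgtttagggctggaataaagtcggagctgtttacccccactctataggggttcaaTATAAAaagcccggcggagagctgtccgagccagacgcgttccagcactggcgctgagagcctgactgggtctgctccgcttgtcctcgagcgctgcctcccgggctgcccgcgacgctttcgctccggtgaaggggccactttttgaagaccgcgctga
The GATA and ACGTG matches are on the opposite strand, and no motif overlapped another. Of 33469 promoter windows of this length, 11.6% held AGATAA, 19.3% ACGTG and 14.2% TATAAA. The AP-1 pattern TGANTCA (7.33% of windows) and the NF-kB pattern GGGANTTCC (1.64%) were also searched, and neither has an exact match here. Variant sites were not searched, so the window cannot be said to lack an AP-1 site. The stretch tgactaa in it, for example, is close to TGANTCA and was not counted. A match describes the sequence and says nothing of binding in these livers.

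Ece1 (1367801_at), the enzyme that activates the endothelin precursor, had the opposite sign to its substrate gene. It read 9.19, 8.61, 8.53 and 8.42 in vehicle rats 1 to 4 and 9.004, 9.10, 8.58 and 8.91 in treated rats 1 to 4. Vehicle 1 was the highest of the 8 arrays, and the other 3 vehicle arrays were at or below 8.61, where only treated 3 joined them. The means were 8.69 ± 0.34 and 8.90 ± 0.23 (n = 4 per group), a difference of 0.21 (95% interval −0.22 to 0.64, limma adjusted p = 0.979). Without vehicle 1 it was 0.38, the largest value obtained by leaving out 1 array, and 0.23 once the near-identical pair was removed (−0.24 to 0.70). The within-group values were −0.18, 0.44 and 0.15, so the first spike-in group ran against the other two.

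Agt (1387811_at), the hepatocyte-made substrate of the renin-angiotensin system, varied between animals more than between groups. It read 12.48, 12.02, 11.35 and 11.53 in vehicle rats 1 to 4 and 11.78, 12.17, 11.64 and 11.39 in treated rats 1 to 4. The treated arrays all lay inside the vehicle range. Means were 11.84 ± 0.51 and 11.75 ± 0.33 (n = 4 per group), a difference of −0.10 (95% interval −0.69 to 0.50, limma adjusted p = 0.994). Its sign rested on single arrays, with 0.12 without vehicle 1 and 0.02 without treated 4, and it was −0.17 (−0.94 to 0.61) without the near-identical pair. The first spike-in group differed by −0.70 and the others by 0.10 and 0.11. Over the 8 arrays Agt spanned 1.13 log2 units. Single hepatocyte markers spanned 0.0648 (Alb, albumin) to 1.54 (Apoa1, an apolipoprotein), and 9 of the 10 spanned less than Agt. Apart from Hnf4a, these markers were brighter than Agt on every array, so the ranges compare genes of unlike brightness. Hnf4a, read at 11.56 to 12.41, spanned 0.85.

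Ace, the enzyme that forms angiotensin II, was read by 2 dim probe sets that did not vary together. The first (1370028_at) read 4.28, 4.17, 4.21 and 4.15 in vehicle rats 1 to 4 and 3.95, 4.23, 4.19 and 4.13 in treated rats 1 to 4, with treated 1 the lowest. Its difference was −0.08 (95% interval −0.31 to 0.15, limma adjusted p = 0.979). The second (1387791_at) read 4.84, 4.92, 4.98 and 4.81 in vehicle rats 1 to 4 and 4.85, 4.49, 5.02 and 4.72 in treated rats 1 to 4, with treated 2 the lowest and treated 3 the highest. Its difference was −0.12 (−0.41 to 0.17, limma adjusted p = 0.979), and −0.23 (−0.55 to 0.09) without the near-identical arrays, against −0.12 (−0.41 to 0.18) for the first probe set. The gap between the probe sets on one array ranged from 0.27 to 0.89. Within spike-in groups the first probe set differed by −0.32, −0.01 and 0.05 and the second by 0.00, −0.34 and 0.21.

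Agtr1a, the type 1 angiotensin receptor, was lower on the near-identical pair than on the 6 other arrays in both of its probe sets. The first (1369291_at) read 9.08, 9.03, 9.04 and 8.46 in vehicle rats 1 to 4 and 9.11, 9.11, 8.35 and 9.12 in treated rats 1 to 4. The 6 other arrays thus lay within 9.03 to 9.12, and vehicle 4 and treated 3 at least 0.58 below them. The second (1384240_at) read 10.61, 10.52, 10.53 and 9.92 in vehicle rats 1 to 4 and 10.76, 10.36, 9.88 and 10.61 in treated rats 1 to 4, with the pair at least 0.44 below the rest, which spanned 10.36 to 10.76. Both arrays of the pair were below all others at 6.8% of all probe sets, and at least 0.5 below at 0.287%, which included the first Agtr1a probe set. The Agtr1a probe sets shared the low values of this pair, with a gap between them of 1.25 to 1.66 on every array. On the 6 other arrays they did not follow each other closely. Treated 2 was among the highest of these on the first probe set (9.11) and the lowest on the second (10.36).

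No difference in Agtr1a with treatment was detected. The means were 8.90 ± 0.30 and 8.92 ± 0.38 for the first probe set and 10.40 ± 0.32 and 10.41 ± 0.38 for the second (n = 4 per group), and the differences 0.02 (95% interval −0.47 to 0.51) and 0.01 (−0.49 to 0.51; limma adjusted p = 1.0 for both). Leaving out the pair narrowed the intervals to −0.19 to 0.31 around 0.06 and to −0.31 to 0.36 around 0.02. Over those 6 arrays the groups of the first probe set did not overlap (10.3% of all probe sets did not; 4.59% when only treated 3 was left out, where this probe set was again the one member), and the step between them was 9.05 against 9.11 in the means. The within-group differences were 0.03, 0.08 and −0.10 for the first probe set and 0.15, −0.04 and −0.04 for the second.

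The window before the Agtr1a start is shown beside that of Edn1 because its probe sets had the clearest pattern over the arrays. RefSeq places it on GRCr8 chr17:34435383-34435682, minus strand, so that both genes lie on the same chromosome. Of the same motifs, TATAAA alone was found, once, and is in capitals.
Agtr1a: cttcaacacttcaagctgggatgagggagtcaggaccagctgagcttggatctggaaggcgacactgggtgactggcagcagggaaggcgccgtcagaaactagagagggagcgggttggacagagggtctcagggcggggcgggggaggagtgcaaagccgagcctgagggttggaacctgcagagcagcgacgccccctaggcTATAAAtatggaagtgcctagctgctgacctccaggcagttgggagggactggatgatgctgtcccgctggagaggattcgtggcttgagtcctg

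**Figure D3:**
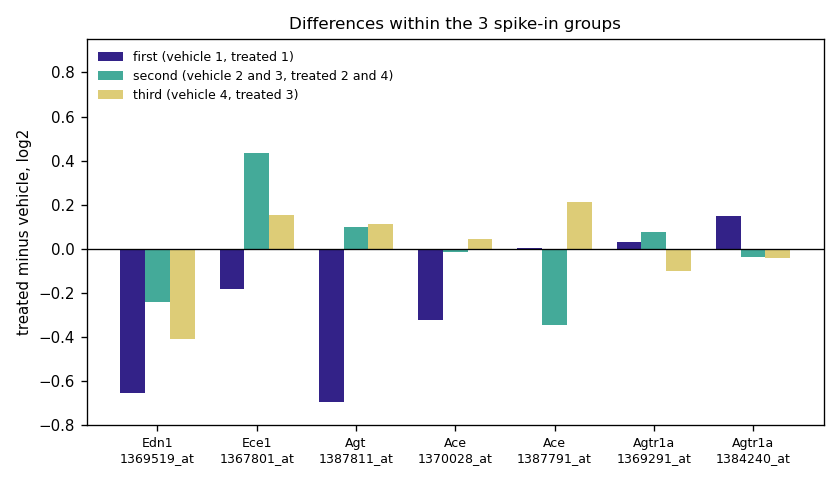
Treated minus vehicle difference in log2 units of each member probe set within the 3 spike-in groups, as bars from 0; the second holds 2 arrays of each label and the other groups 1. Edn1 is below 0 in all 3 (−0.65, −0.24 and −0.41), and Agt reaches −0.70 in the first alone.

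The remaining genes of the endothelin pathway were dim, and none was called. Of 5 listed genes 4 were measured, 2 lower and 2 higher, with a median difference of 0.01, equal to the median over all 14217 genes, and 0 called. Ece2 (1386749_at), a second converting enzyme, read 4.36, 4.70, 4.27 and 4.77 in vehicle rats 1 to 4 and 4.21, 4.27, 4.32 and 4.29 in treated rats 1 to 4. Its difference was −0.25 (95% interval −0.56 to 0.05, limma adjusted p = 0.979), and that of its other probe set was −0.01. Ecel1 (1368923_at), a related enzyme known from neurons, differed by 0.16 (−0.12 to 0.44). Edn2 (1369536_at), another endothelin ligand, differed by −0.12 (−0.42 to 0.17).

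Of 19 further renin-angiotensin genes 15 were measured, 4 lower and 11 higher (26.7% lower, against 48.4% of all genes). Their median difference was 0.05, and 0 were called over all 8 arrays. The chymase gene Cma1 (1387173_at), a mast cell protease of the family that can form angiotensin II without Ace, stood apart. It read 5.32, 5.23, 5.44 and 3.70 in vehicle rats 1 to 4 and 3.32, 3.59, 3.91 and 3.46 in treated rats 1 to 4. Vehicle 4 lay among the treated arrays, and the other vehicle arrays were all above 5. The means were 4.92 ± 0.82 and 3.57 ± 0.25 (n = 4 per group), which is 2.56-fold lower. Cma1 was dim, between the 9.98th and 52.0th percentile of its array. Vehicle 4 and every treated array lay at or below the 25th percentile of their array (3.74 to 3.91), and signal was not tested against background. The difference was −1.35 (95% interval −2.17 to −0.53), with a limma adjusted p of 0.979. Cma1 passed the threshold when vehicle 4 was left out (−1.76, limma adjusted p = 0.0234). It also passed without both near-identical arrays (−1.88, limma adjusted p = 0.0388). Both fits leave out vehicle 4, the vehicle array that read like the treated ones. Over all probe sets, 11 passed in the first of these fits and 3 in the second. Cma1 passed in no other setting in which it was tested. Its limma adjusted p was 0.971 without treated 3, and the smallest in those settings was 0.515, without treated 4. All 6 mast cell markers, Cma1 among them, had lower means in treated livers, with list means of 4.29 to 5.90 on vehicle and 4.06 to 4.40 on treated arrays, and their part in the Cma1 values was not tested.

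Other enzymes and receptors of this system gave smaller differences. Prcp (1379248_at), a carboxypeptidase that removes angiotensin II, differed by −0.52 (95% interval −1.25 to 0.22). This value was carried by treated 2 at 5.82 against 7.24 to 7.75 on every other array, and without treated 2 it was −0.15. The second Prcp probe set (1393657_at) differed by −0.23. Mas1 (1370092_at), a receptor that opposes the type 1 receptor, differed by 0.27 (−0.18 to 0.71), with treated 1 the highest at 4.35, and by 0.08 without that array. Nr3c2 (1368476_at), also of this list, differed by 0.38 (−0.31 to 1.06). Atp6ap2 (1379255_at), the prorenin receptor, differed by −0.06 (−0.48 to 0.35), and the aminopeptidase Enpep (1368512_a_at), which trims angiotensin II, by 0.03 (−0.76 to 0.82).

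Of 25 genes that carry or end the signal of these receptors 23 were measured, 15 lower and 8 higher, with a median of −0.06 and 0 called (65.2% lower, against 48.4% of all genes). Rgs2 (1387074_at), which switches off the Gq proteins that both receptor families use, read 9.85, 8.86, 9.25 and 7.56 in vehicle rats 1 to 4 and 6.02, 8.09, 7.57 and 8.27 in treated rats 1 to 4. The vehicle arrays other than vehicle 4 were above every treated array. Its means were 8.88 ± 0.97 and 7.49 ± 1.02 (n = 4 per group), which is 2.62-fold lower. The difference was −1.39 (95% interval −2.71 to −0.08), with a limma adjusted p of 0.979. The second Rgs2 probe set (1368144_at) differed by −1.42, and the first by −1.86 without the near-identical pair (limma adjusted p = 0.713). Without treated 1, the lowest array, the first differed by −0.90. Within the spike-in groups it differed by −3.83, −0.88 and 0.01.

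The beta-arrestins, which uncouple and internalize such receptors, had lower means as well, but not every gene of this list that ends the signal did. Rgs3, Rgs4 and Rgs5 had higher means, with differences of 0.54, 0.45 and 0.54. Those of Grk2 and Grk5 were −0.08 and −0.25. Arrb1 (1383261_at) averaged 6.77 ± 0.21 and 6.33 ± 0.31 (n = 4 per group; difference −0.45, 95% interval −0.84 to −0.05, limma adjusted p = 0.979), while its dim second probe set (1368968_at) differed by 0.02. Arrb2 (1370265_at) averaged 6.66 ± 0.49 and 6.04 ± 0.45 (difference −0.62, −1.26 to 0.02, limma adjusted p = 0.979). Stellate cell and myofibroblast markers, whose cells use this signalling, had lower means in treated livers at 12 of 14 genes, with list means of 8.00 to 9.07 on vehicle and 7.66 to 8.60 on treated arrays. Their part in the Rgs2 and arrestin values was not tested.

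**Figure D4:**
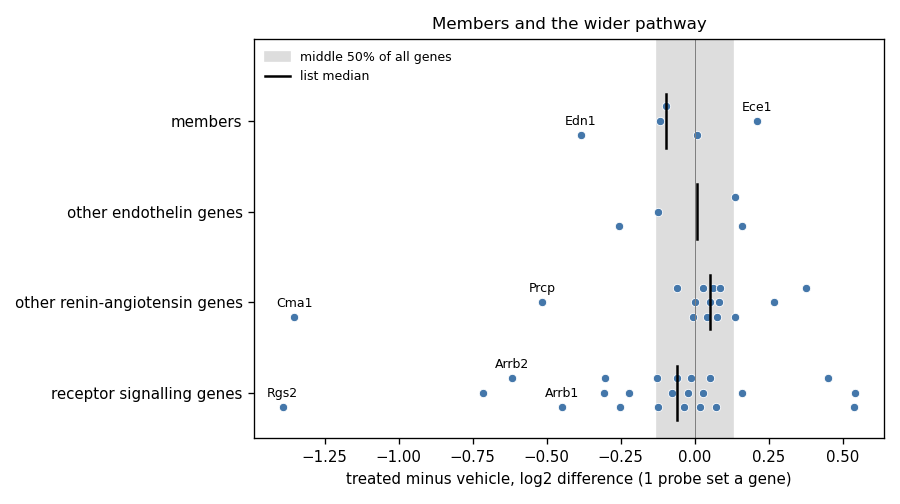
Treated minus vehicle log2 difference of each measured gene, 1 probe set a gene, for the members and the 3 wider lists; black ticks are list medians and the grey band holds the middle 50% of all genes (−0.13 to 0.13). List medians lie between −0.10 and 0.05, inside the band, and Cma1 (−1.35) and Rgs2 (−1.39) are farthest from 0.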

How the data were processed

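The authors deposited log2 values made with affy and RMA, per the submitters' processing notes; for versions, settings and genome build, not given in the sources used here. The log2 scale was read from the range of the values, which were used as deposited on all 8 arrays. RMA shrinks differences of dim probe sets, which can understate fold changes of Edn1 and Ace. The cRNA was primed from the 3′ end per the labels' protocols. Depth has no counterpart on arrays, and their number limits the precision.

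The 57 control probe sets were left out. Limma (version 3.58.1, R 4.3.3) was run with lmFit and eBayes on 31042 probe sets, without covariates, with Benjamini-Hochberg adjustment over all of them, and was tested on simulated data. Gene symbols came from the platform annotation (20826 probe sets with 1 symbol, 436 with several, 9780 with none listed), promoter sequences from RefSeq (GRCr8). In lists a gene was represented by its probe set with the highest mean. Named genes were all members and, per wider list, those with an unadjusted p under 0.05 or the 3 smallest. Atp6ap2, Enpep, Nr3c2, Rgs3, Rgs4, Rgs5, Grk2 and Grk5 were added after their values were seen. For members with an SD of at least 0.3 the 3 most correlated genes were taken.

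The members, lists and alternatives were chosen with earlier results of these data known. Alternatives were quantile normalization, median centring, filters on dim probe sets, trend and robust eBayes, array weights, blocks for replicate number and spike-in group, the Gapdh 3′ to 5′ ratio as a covariate, and leaving out arrays. Marker lists also covered sinusoidal endothelium (6 of 6 measured genes lower), vascular smooth muscle (5 of 7), macrophages (4 of 6) and bile ducts (5 of 5), with 0 genes called in each.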

Additional observations from a re-analysis of the deposited data

Results flagged for a closer look

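In 6 cases 1 array stood apart from the other 3 of its group. Its gap to the nearest array, as a share of the group's range, was above Dixon's 95% critical value. Of 32 groups examined, chance would flag about 5% if they were independent. They were not, because Agtr1a and Ace enter with 2 probe sets each and the near-identical arrays recur. The wider genes were also picked by smallest p, so the count is a description only. For Agtr1a the first probe set (1369291_at) had a gap of 0.933 of the range on vehicle 4 and of 0.976 on treated 3, and the second (1384240_at) one of 0.872 on vehicle 4, each time as the lowest array. Vehicle 4 and treated 3 are the near-identical arrays. Vehicle 4 was also the lowest for Cma1 (0.875 of the range). Vehicle 1 was the lowest for Edn2 (0.89), at 3.41 against 3.76 to 3.80. Treated 2 was the lowest for Prcp (0.927).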

How the results depend on the processing

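Under every alternative run, 0 member probe sets were called. The count over all probe sets was 3 without both near-identical arrays and ranged from 0 to 11 when 1 array was left out (11 without vehicle 4). The count of members without overlap was 1 without both near-identical arrays and ranged from 0 to 1 when 1 array was left out (1 without treated 3, where 4.59% of all probe sets did not overlap). The signs for Edn1, Ece1 and both Ace probe sets held in each alternative, with ranges on leaving out 1 array of −0.55 to −0.25 (Edn1), 0.12 to 0.38 (Ece1), −0.11 to −0.02 and −0.20 to −0.03 (Ace). The Agt difference ranged from −0.26 to 0.12 on leaving out 1 array. That of Agtr1a ranged from −0.13 to 0.21 (1369291_at) and from −0.15 to 0.18 (1384240_at), was −0.0599 and −0.0751 with array weights, and −0.0429 for the second probe set after quantile normalization; the cause was not tested. The filter at a mean of 6 removed Edn1 and Ace, and that at the 40th percentile 1 Ace probe set. With the mean of both probe sets Ace differed by −0.10 and Agtr1a by 0.01. With the replicate number as a block, 0 members and 0 probe sets were called; same-numbered arrays correlated at −0.62 to 0.04 in their deviations, so the numbers did not pair the arrays. Median centring adds 0.05 to every difference. Brightness limits Edn1, Ace and the other dim probe sets, whose signal was not tested against background.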

Other observations

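The genes most like each member over the arrays were found by Pearson's r, as a description: they are the highest of about 8495 genes with a mean above 6, on 8 arrays that include the near-identical pair, and high values arise from that search alone. For Edn1 these were U2af2 (r = 0.98), Hpx (0.95) and Trak2 (0.94), and their values over the 6 arrays without the pair were 0.98, 0.97 and 0.94. For Agt they were Ppat (0.98), Usp25 (0.93) and Arhgef12 (0.93). For Agtr1a (1384240_at) they were Mllt6 (0.99), Zfp715 (0.98) and Chtf8 (0.97), with 0.94, 0.84 and 0.87 over the 6 arrays. Ece1 and Ace varied too little for this search.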
